A study of Mus musculus with 6 samples.

Results

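The 10 genes described here mark mucous cells of the stomach surface and of the antrum, the lower stomach next to the pylorus, and were measured in 6 mouse intestinal tumors. They are the gastrokines Gkn1 and Gkn2, the trefoil peptides Tff1 and Tff2, the mucin Muc5ac, the annexin Anxa10, the claudin Cldn18, the surface protein Psca and the aspartic proteases Ctse and Pgc. They were chosen by symbol. All 10 were on the array, out of 12393 genes that had a probe set naming exactly 1 gene. Together they had 14 probe sets, 1 for each of 6 genes and 2 for each of 4 genes.

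The tumors came from 6 different mice that carried the tumor-predisposing Apc allele Apc1638N and were Rb1 deficient, Rb1 being the gene of the retinoblastoma protein. Both alterations were shared by the 3 mice with a duodenal tumor and the 3 mice with a cecal tumor, and neither the ages of the mice nor the way Rb1 was lost is given in the labels used here. Each tumor was read on 1 Affymetrix array. Per the labels, tissue of tumors that began at the pylorus, where the stomach empties into the duodenum, counted as duodenal tumor, and the labels do not say which of the 3 samples held any. Normal mucosa and tumors with working Rb1 were not analysed here, and the 2 sites also differ as normal tissue.

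Surface mucous cells cover the stomach with a gel of secreted mucin, mainly Muc5ac, held together by trefoil peptides, and they release gastrokines along with it. Mucous cells deeper in the antral glands secrete Tff2 and the mucin Muc6, and the Brunner glands just below the pylorus make similar products. Healthy intestinal epithelium instead relies on the mucin Muc2 and on Tff3, and gastric mucous genes are also known from areas of gastric metaplasia in injured intestine.

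The arrays had median intensities of 164.45 to 181.8, and a probe set is called dim here where it lay below its array's 40th percentile, which was at 92.36 to 100.6. Highest intensities on the duodenal arrays were 14029.3, 13831.8 and 18469 in tumors 1, 2 and 3. Among the 14 member probe sets 6 were above 8000 in all duodenal tumors, near the top of these arrays' range. Site markers were read beside the labels. Of 5 tested proximal small intestine genes all 5 were higher in duodenal tumors, and of 6 tested large intestine genes all 6 were lower there, Retnlb not without cecal tumor 1 (adjusted p = 0.0731). The iron reductase Cybrd1 (log2 difference 3.85) was among the first, and the carbonic anhydrase Car1 (-8.41), the P450 enzyme Cyp2c55 (-5.17) and the hindgut factor Hoxb6 (-4.18) among the second. All of the first were dim in all cecal tumors, and all of the second but Retnlb were dim in all duodenal tumors. Those genes passed the filter only through the site where they were bright, so these counts by themselves carry no weight. Of all 8125 tested genes 4.73% were higher in duodenal tumors and 5.7% lower. Tumor 2 of each site came from a female mouse by its RNA. The X-inactivation transcript Xist was at 4169.1 in duodenal tumor 2 and 4486.3 in cecal tumor 2 but at most 61.6 in the other 4 tumors, and the Y-linked Eif2s3y was at most 13 in those 2 tumors and at least 580.6 in the others. These sex-linked genes were looked up after member values had been seen.

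Of the 14 member probe sets 13 were higher in duodenal tumors, as were all 10 genes by their brightest probe set. Across the array 4.07% of 13866 tested probe sets were higher in duodenal tumors and 5.24% were lower, and by gene 4.73% of 8125 were higher and 5.7% lower. The call used limma on log2(intensity + 16), duodenal minus cecal, with Benjamini-Hochberg adjustment over all tested probe sets and a threshold of 0.05. In the same 13 probe sets every duodenal tumor lay above every cecal tumor, which 15.7% of all tested probe sets also did. No member probe set was lower. In all, 11 of the 14, from 8 genes, were dim in all 3 cecal tumors and were tested only because they were bright in duodenal tumors, so the member counts by themselves carry no weight. With no filter on dim probe sets, 22626 were tested and 2.22% were higher in duodenal tumors. All 11 of the dim member probe sets were called in that fit, with adjusted p between 3.94e-06 and 0.0171. For such probe sets a fold is printed as a lower bound, since the fitted log2 value depends on the offset of 16. The bound is the duodenal intensity over the cecal percentile level, each averaged on the log2 scale. In whole-tumor RNA, fewer cells of a type and less RNA per cell cannot be told apart.

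**Figure D1:**
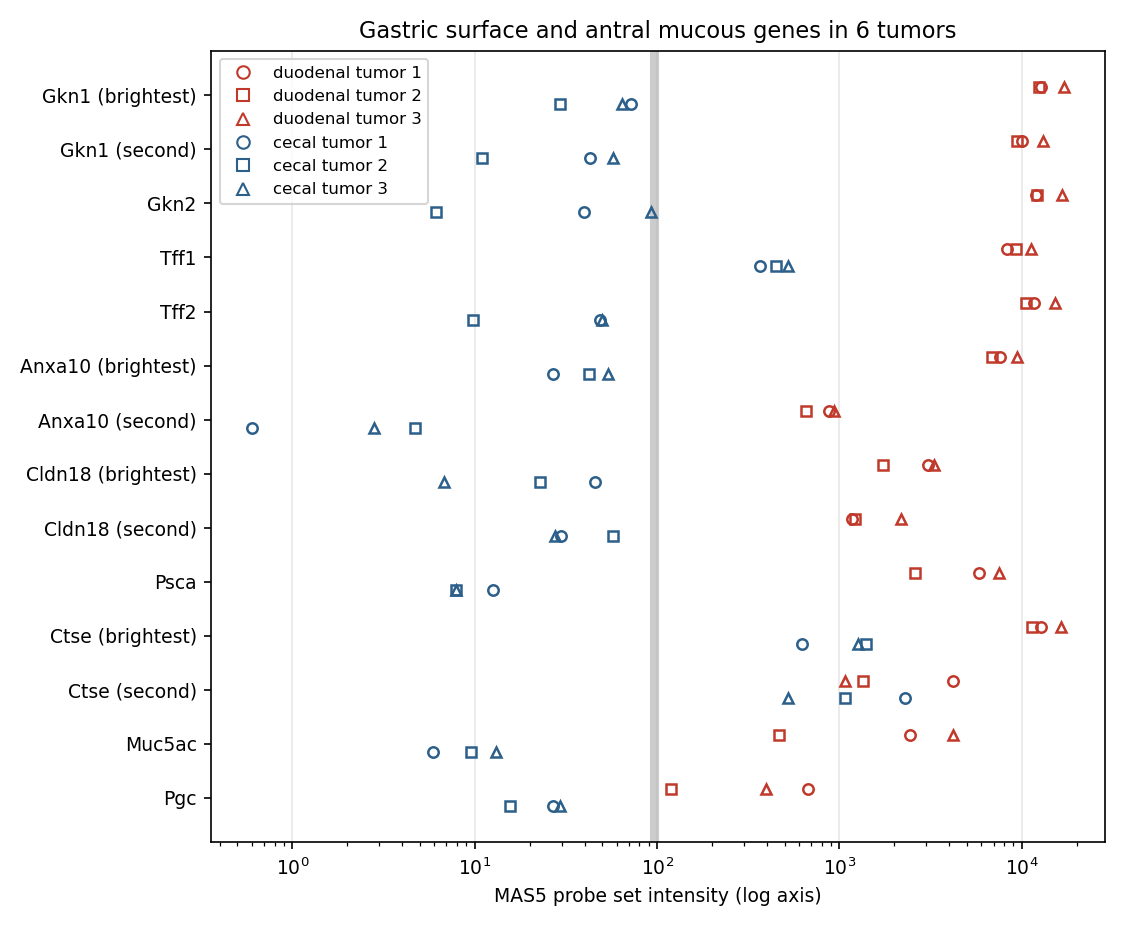
Intensity of each member probe set (rows) in each of the 6 tumors on a log axis, with duodenal tumors in red and cecal tumors in blue, and the grey band marking the arrays' 40th percentiles (92.36 to 100.6). Red and blue points are separate in 13 of 14 rows and overlap in the second Ctse row, while blue points of Tff1 and Ctse lie right of the band.

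Promoter sequences are shown for the members that had one on record, to let the regions of the neighbouring gastrokine genes be read beside those of other members. RefSeq sequences of build GRCm38.p6 were matched by symbol for 5 of the 10 members, Gkn1, Gkn2, Anxa10, Cldn18 and Pgc, the claudin with 2 starts. Tff1, Tff2, Psca, Ctse and Muc5ac had no entry. Each line gives 250 bases up to the start, 5′ to 3′ on the gene's strand, in lower case with every GATAA or its reverse complement TTATC in capitals, the core bound by GATA factors.
Gkn1 chr6:87350916-87351165, minus strand: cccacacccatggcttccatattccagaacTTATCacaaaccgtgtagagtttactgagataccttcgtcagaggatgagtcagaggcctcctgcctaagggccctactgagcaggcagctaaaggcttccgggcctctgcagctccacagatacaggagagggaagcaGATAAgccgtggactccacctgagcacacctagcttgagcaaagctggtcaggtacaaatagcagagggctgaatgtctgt
Gkn2 chr6:87373115-87373364, plus strand: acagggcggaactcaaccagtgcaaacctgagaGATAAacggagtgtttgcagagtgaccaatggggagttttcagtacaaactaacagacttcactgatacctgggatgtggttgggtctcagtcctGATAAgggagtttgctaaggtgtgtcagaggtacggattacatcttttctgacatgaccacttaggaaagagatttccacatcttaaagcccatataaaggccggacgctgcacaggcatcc
Cldn18 chr9:99717268-99717517, minus strand, first start: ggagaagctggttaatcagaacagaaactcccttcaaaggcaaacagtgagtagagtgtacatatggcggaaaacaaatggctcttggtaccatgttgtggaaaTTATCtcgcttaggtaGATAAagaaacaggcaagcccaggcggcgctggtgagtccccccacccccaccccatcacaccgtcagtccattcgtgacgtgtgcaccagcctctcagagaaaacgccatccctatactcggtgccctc
Anxa10 chr8:62123194-62123443, minus strand: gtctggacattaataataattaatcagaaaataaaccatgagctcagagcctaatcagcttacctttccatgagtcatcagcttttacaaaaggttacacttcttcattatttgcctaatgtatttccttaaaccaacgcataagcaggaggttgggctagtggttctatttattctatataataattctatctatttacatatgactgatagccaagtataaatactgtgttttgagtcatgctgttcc
Pgc chr17:47726592-47726841, plus strand: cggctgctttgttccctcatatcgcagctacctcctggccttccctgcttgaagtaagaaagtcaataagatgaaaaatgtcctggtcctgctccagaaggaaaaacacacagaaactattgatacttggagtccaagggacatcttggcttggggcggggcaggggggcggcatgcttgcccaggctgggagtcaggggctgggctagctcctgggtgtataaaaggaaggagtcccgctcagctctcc

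Gkn1 held 2 GATAA matches, beginning 220 and 81 bases before its start, and Gkn2 held 2, beginning 217 and 122 bases before it. In the first Cldn18 region the 2 matches began 146 and 130 bases before the start. Anxa10, Pgc and the second Cldn18 start had 0. Searched on both strands, GATAA occurred in 22.6% of 32851 RefSeq regions of this length and at least 2 times in 4.28%. The letters TATAAA, the core of a TATA box, began 29, 32 and 31 bases before the starts of Gkn2, Anxa10 and Pgc, and occurred in 12.4% of all regions. Of the other motifs searched on both strands, TGTTTNC (Fox factors) was in Gkn2 and both Cldn18 regions against 17.8% of all regions. CACCC (Krüppel-like factors) was in Gkn1, Pgc and both Cldn18 regions against 52%, and CATTGT (Sox factors) was in 0 of the 6 against 10.7%. These are matches of letters in one window and are given as a description.

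The gastrokines are small secreted proteins of surface mucous cells. Gkn1, which helps maintain the gastric lining, had intensities of 12715, 12496 and 17057 in duodenal tumors 1, 2 and 3 and of 71.8, 29.3 and 64.3 in cecal tumors 1, 2 and 3. All 3 duodenal tumors were high and all 3 cecal tumors were dim, with no overlap. Mean intensities were 14090 ± 2573 (SD, n = 3) and 55.1 ± 22.7 (n = 3), at least 145-fold higher in duodenal tumors (log2 difference 7.67 ± 0.26 SE, adjusted p = 2.53e-06). Its second probe set, of an Affymetrix type that can cross-hybridise, had 10033, 9465.2 and 13111 against 42.9, 11 and 57.2, at least 111.9-fold higher (adjusted p = 9.8e-06). Both probe sets thus put the tumors in separate groups.

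Gkn2, a secreted partner of Tff1 and neighbour of Gkn1 on chromosome 6, had 11883, 12096 and 16558 in the duodenal tumors and 39.8, 6.1 and 92.6 in the cecal tumors. Duodenal values were alike to within 1.39 times, and the highest cecal value was still dim. It stood at least 138.9-fold higher in the duodenal group (log2 difference 8.03 ± 0.49, adjusted p = 8e-05, and 7.42 without cecal tumor 2). On the far side of Gkn1 in the RefSeq gene table lies Antxr1, an anthrax toxin receptor gene, which did not pass (log2 difference -0.17, adjusted p = 0.651). Gkn3, next to Gkn2, had no probe set here.

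Trefoil peptides protect and repair the mucosa. Tff1, the trefoil peptide of gastric surface cells, had 8241.1, 9275.6 and 11240 in duodenal tumors and 368.7, 447.2 and 524.7 in cecal tumors. The groups did not overlap, but unlike most members Tff1 was above the dim level in every cecal tumor, so that its fold is measured on both sides. Means were 9586 ± 1523 (SD, n = 3) and 446.9 ± 78 (n = 3), a ratio of 21.5 (log2 difference 4.38 ± 0.17, adjusted p = 5e-06). Leaving out any 1 tumor kept the log2 difference between 4.25 and 4.5.

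Tff2, the trefoil peptide of gastric neck cells, antral glands and Brunner glands, had 11669, 10509 and 15186 in duodenal tumors and 48.7, 9.8 and 50.1 in cecal tumors. Every duodenal tumor was bright and every cecal tumor dim. It stood at least 128-fold higher in the duodenal group (log2 difference 8.0 ± 0.35, adjusted p = 9.8e-06). The third trefoil gene, Tff3, sits beside Tff2 on chromosome 17 and is made by intestinal goblet cells. Tff3 had 5641.4, 3686.8 and 3200.9 in the duodenal group and 9225.3, 6658.1 and 7939.7 in the cecal group. It moved the other way with no overlap and fell by 0.95 ± 0.21 on the log2 scale (adjusted p = 0.0284). That call was lost when cecal tumor 1 or 3 or duodenal tumor 2 or 3 was left out (adjusted p = 0.115, 0.0658, 0.0725 and 0.0726), with array weights (0.0737) and with males alone (0.0923). Tmprss3, on the other side of Tff1, was dim in all 6 tumors.

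Muc5ac, the gel-forming mucin of the gastric surface, had 2430.2, 467.2 and 4185.1 in duodenal tumors and 5.9, 9.5 and 13.1 in cecal tumors. The groups were far apart, yet the duodenal tumors differed among themselves by 8.96 times, with tumor 2 lowest. Muc5ac stood at least 17.5-fold higher in the duodenal group (log2 difference 6.07 ± 0.67, adjusted p = 0.0013), and the log2 difference was 6.98 without duodenal tumor 2 and 5.42 without duodenal tumor 3 (adjusted p = 1.73e-05 and 0.0039). On chromosome 7 Muc5ac lies between the intestinal mucin gene Muc2, which had no probe set here, and Muc5b, a mucin of airway and gland cells. Muc5b had 150.6, 28 and 64.7 in duodenal tumors and 13.3, 9.8 and 12 in cecal tumors and was too dim to be tested.

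Anxa10, a calcium-binding annexin of gastric epithelium, had 7581.9, 6838.5 and 9455.9 in duodenal tumors and 26.8, 42.1 and 53.9 in cecal tumors. The 3 duodenal values were high and close together, and the cecal values were dim. It stood at least 82-fold higher in the duodenal group (log2 difference 7.15 ± 0.21, adjusted p = 1.61e-06). A second probe set had 873.6, 653.1 and 932.5 against 0.6, 4.7 and 2.8 and was at least 8.43-fold higher (adjusted p = 5e-06).

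Cldn18 forms tight junctions, and one of its isoforms is known as the stomach form. It had 3069.9, 1736.8 and 3298.9 in duodenal tumors and 45.5, 22.9 and 6.8 in cecal tumors, with no overlap and with duodenal tumor 2 lowest. The gene stood at least 27.1-fold higher in the duodenal group (log2 difference 6.11 ± 0.37, adjusted p = 8e-05). Its second probe set had 1170.8, 1213.3 and 2169 against 29.9, 57.1 and 27.7 and was at least 15.1-fold higher (adjusted p = 7.57e-05). There duodenal tumor 2 was level with duodenal tumor 1, so the 2 probe sets differ on the place of tumor 2. The probe sets are not assigned to isoforms in the sources used here.

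Psca, a membrane-anchored protein of gastric and urinary epithelium, had 5836.5, 2586.4 and 7505.8 in duodenal tumors and 12.6, 7.9 and 7.9 in cecal tumors. Duodenal tumor 2 was again lowest, and all cecal tumors were dim. Psca stood at least 50.3-fold higher in the duodenal group (log2 difference 7.58 ± 0.35, adjusted p = 1.26e-05). Slurp1, 2 genes away on chromosome 15 and of the same Ly6 family, had 373.6, 198.9 and 204.8 against 5.3, 12.5 and 8.2 and was at least 2.58-fold higher (adjusted p = 0.000362).

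Ctse, an intracellular aspartic protease abundant in gastric surface cells, had 12758, 11377 and 16414 in duodenal tumors and 620.9, 1404.5 and 1267.7 in cecal tumors at its brightest probe set. The groups did not overlap, and like Tff1 it was above the dim level in all cecal tumors. Means were 13516 ± 2603 (SD, n = 3) and 1098 ± 419 (n = 3), a ratio of 12.3 (log2 difference 3.67 ± 0.29, adjusted p = 0.000281). Its second probe set, of a type that can match several transcripts, had 4167.7, 1349.8 and 1066 in duodenal tumors and 2286.4, 1076.3 and 525.3 in cecal tumors. Here the groups overlapped, and the tumors numbered 1 were high at both sites. The log2 difference of 0.73 ± 0.60 did not pass (adjusted p = 0.534) and was 0.13 without duodenal tumor 1. It passed in the fit that blocked on replicate number (adjusted p = 0.0289). The 2 probe sets of Ctse therefore give different sizes, and the files do not show which transcripts each one reads.

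Pgc encodes pepsinogen C, a digestive proenzyme of gastric glands and Brunner glands. It had 672.1, 118.7 and 397.8 in duodenal tumors and 26.8, 15.7 and 29.3 in cecal tumors. Duodenal tumor 2 was only just above the dim level of its array, at 100.1, and still above every cecal tumor. Pgc stood at least 3.29-fold higher in the duodenal group (log2 difference 3.10 ± 0.53, adjusted p = 0.00944). The call held with any 1 tumor left out, with an adjusted p of at most 0.0416, and the log2 difference was 3.76 without duodenal tumor 2.

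**Figure D2:**
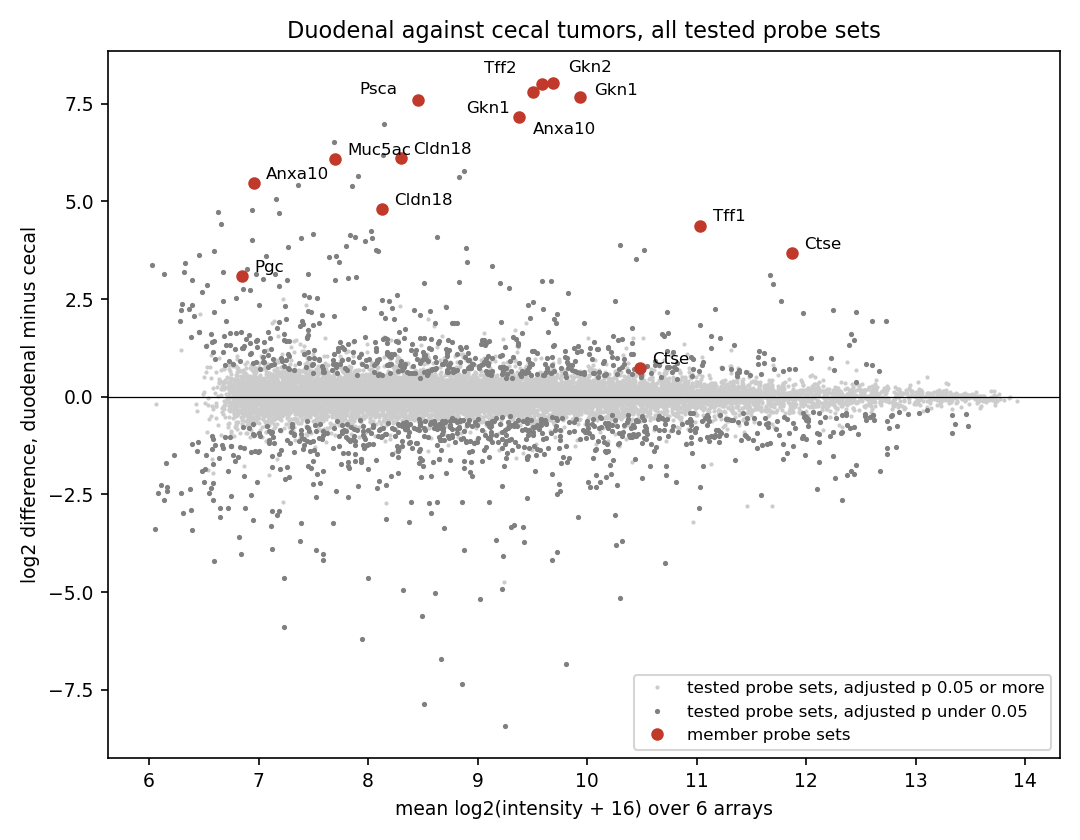
Log2 difference (duodenal minus cecal, vertical) against mean log2(intensity + 16) over the 6 arrays (horizontal) for all 13866 tested probe sets, those with adjusted p under 0.05 in dark grey and the 14 member probe sets in red. Member probe sets lie between 3.10 and 8.03 except the second Ctse probe set at 0.73.

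The members' log2 differences had a median of 6.63 by brightest probe set, against 0.05 over all 8125 tested genes, a description only, since 8 of the 10 members were dim in all cecal tumors. Members did not vary alike among the duodenal tumors. Duodenal tumor 2 was the lowest of the 3 in 10 of 13 member probe sets that passed, while it was lowest in 34.7% of all tested probe sets and in 69.9% of the 312 probe sets called with a log2 difference over 1. Set against the mean of duodenal tumors 1 and 3, log2 values in tumor 2 were lower by little for 6 members: the difference was -0.05 for Tff1, -0.21 for Gkn2, -0.24 for Gkn1, -0.31 for Anxa10, -0.34 for Tff2 and -0.35 for Ctse. For the other 4 members it was larger, at -0.87 for Cldn18, -1.35 for Psca, -1.99 for Pgc and -2.73 for Muc5ac. Among the same 312 called probe sets, tumor 2 against the mean of tumors 1 and 3 had a median of -0.45. Over all tested probe sets the 5th and 95th percentiles of this difference were -0.61 and 0.57. Inside this range lay the gastrokines, the trefoils and Anxa10 at each of their probe sets, and below it Muc5ac, Pgc and Psca. Cldn18 and Ctse were split between their probe sets, with the second at -0.39 for Cldn18 and -0.64 for Ctse. With 1 tumor on one side this has no replicate check. The 6 bright probe sets also lie near the top of the array's range, which was not tested as a reason for their smaller differences.

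Several other gene groups stood lower in duodenal tumor 2, the duodenal tumor of a female mouse. Gast, the antral hormone gastrin, had 2805, 134.6 and 1319.9 in duodenal tumors 1, 2 and 3, and Chgb, a granule protein of endocrine cells, had 3336.4, 519.2 and 6898.3. The 6 proximal small intestine genes summed to 10897.9, 2733.8 and 11278.3. Levels of 8 smooth muscle genes summed to 9825.7, 5701.3 and 8780.7. The 11 intestinal epithelium genes summed to 57607.3, 55812.2 and 65924.1, mostly from a few very bright genes. Of these 11, 2 lay below the 5th percentile in tumor 2, the fatty acid binding protein Fabp2 (1647, 666.2 and 1671.8) and the mucin Muc13 (6034.8, 3734.5 and 6411.1). Below it also lay 5 of 5 tested endocrine, 9 of 16 other gastric mucous and 4 of 5 proximal small intestine genes. So did 4 of 8 smooth muscle genes, 4 of 10 members and 3 of 18 stomach and duodenum factors. Of 4 tested leukocyte genes 0 did, and sums of 7 such genes were 5785.4, 6096.5 and 6064.2. The mast cell protease Mcpt1 had 373.8, 3924.5 and 275.8. The part of sex or of any of these groups in the low Muc5ac, Pgc and Psca values of tumor 2 was not tested. Site differences of the members held with tumor 2 of both sites left out, when the same 13 of 14 probe sets passed, Muc5ac with a log2 difference of 6.99 (adjusted p = 6.26e-05) and Pgc with 3.60 (adjusted p = 0.00132).

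Duodenal tumor 3 was the highest of the 3 in 12 of the 13 member probe sets that passed, against 33.6% of all tested probe sets. Its share among probe sets called higher in duodenal tumors was not worked out, so this is not shown to be particular to the members. For the 6 bright ones its intensity was 1.29 to 1.39 times that of duodenal tumor 1. Among 177 probe sets of other genes that were also above 8000 in all duodenal tumors, the same ratio had a median of 1.24, with 5th and 95th percentiles of 1.09 and 1.34. The members' ratios lay in the upper part of that range or above it. Set against duodenal tumor 2, the 6 had ratios of 1.21 to 1.45, and the 177 others a median of 1.23 with 5th and 95th percentiles of 1.08 and 1.4. Tff1 lay below that median.

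**Figure D3:**
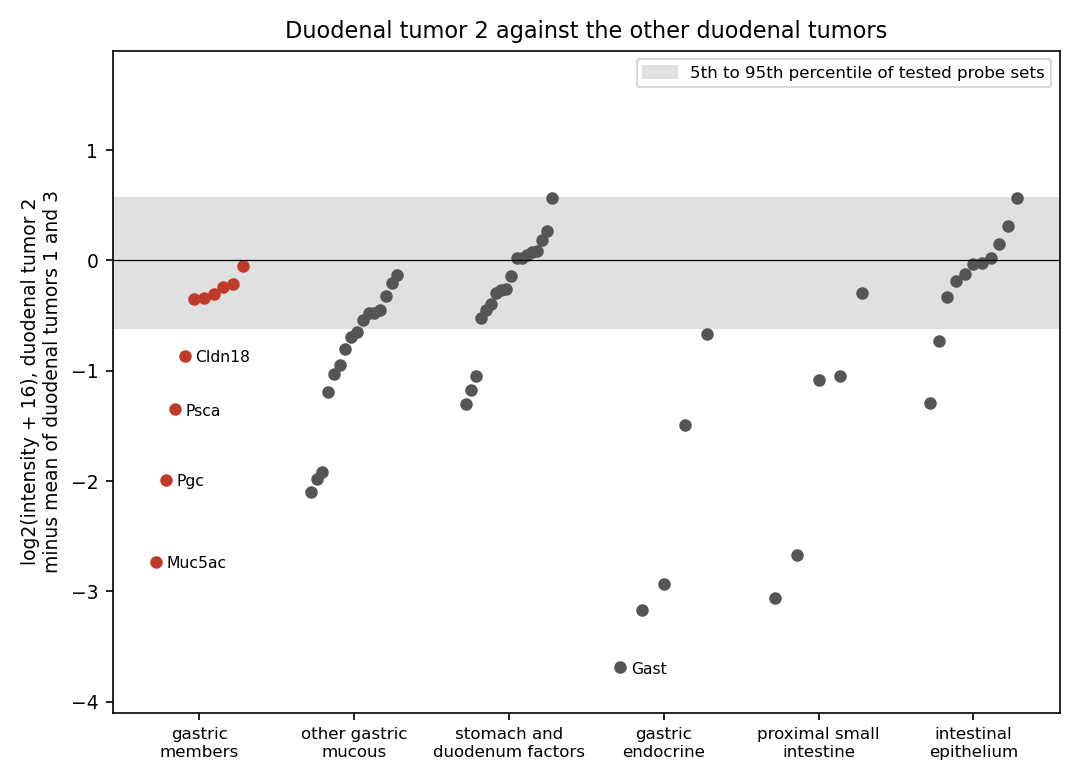
Difference of log2(intensity + 16) between duodenal tumor 2 and the mean of duodenal tumors 1 and 3 for tested genes of 6 groups (brightest probe set per gene, 1 point each), with the band from the 5th to the 95th percentile of all tested probe sets (-0.61 to 0.57). Among members Cldn18, Psca, Pgc and Muc5ac lie below the band, and Gast lies lowest of the points drawn.

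Other genes of gastric mucous cells were higher in part. Of 29 genes listed, 18 were on the array and 16 were tested. Among the 16, 5 were higher and 1, Tff3, was lower in duodenal tumors, with a median log2 difference of 0.31. Over all 8125 tested genes 4.73% were higher and 5.7% lower. Muc1, Bpifb1 and Aqp5, which are among the 5, were dim in all cecal tumors and were tested only through their duodenal values. The count by itself therefore carries no weight. Muc1, a membrane mucin of gastric and other epithelia, had 2230.7, 1344.5 and 2493.3 in duodenal tumors and 2.8, 9.5 and 4.8 in cecal tumors. It separated the sites fully and was at least 20.3-fold higher (log2 difference 6.52 ± 0.25, adjusted p = 5e-06). Bpifb1, a secreted defence protein, was at least 4.94-fold higher (adjusted p = 0.000811), and Aqp5, a water channel of pyloric and Brunner glands, at least 7.08-fold higher (log2 difference 3.44, adjusted p = 0.0056, and 4.10 without duodenal tumor 2). Vsig2 (log2 difference 2.96 ± 0.36, adjusted p = 0.00197) and Sult1c2, a sulfotransferase (2.97 ± 0.38, adjusted p = 0.00269), were measured on both sides. Capn8, a calpain protease of gastric surface cells, did not pass (log2 difference 0.84, adjusted p = 0.0689, and 0.0216 without duodenal tumor 2), and neither did Sytl2 (0.41, adjusted p = 0.252). Capn9, which forms a complex with Capn8, had 469.6, 110.9 and 458.5 against 149.4, 90.4 and 173.9 and did not pass (adjusted p = 0.258), though it did without duodenal tumor 2 (0.00862), in males alone (0.00965) and with the replicate block (0.0458). Agr2, Pigr and Kcnk1 were bright at both sites and did not pass, with log2 differences of 0.21, 0.04 and -0.08.

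Transcription factors of stomach and duodenum numbered 25 on the list, of which 22 were on the array and 18 were tested. In duodenal tumors 7 were higher and 3 lower (median log2 difference 0.50), against 4.73% higher and 5.7% lower of all 8125 tested genes. Sox2, Pdx1 and Gata4, which are among the 7, were dim in all cecal tumors and were tested only through their duodenal values. The count of higher factors by itself therefore carries no weight. Sox2, which specifies stomach epithelium, had 733.8, 301 and 799.8 in duodenal tumors and 6.6, 46.1 and 33.1 in cecal tumors. All cecal values were dim, and Sox2 was at least 5.84-fold higher (log2 difference 3.82 ± 0.46, adjusted p = 0.00193, and 4.55 in males alone). Pdx1, a factor of antrum, duodenum and pancreas, had 1051.7, 845.9 and 1027 against 47.8, 70.9 and 60.1 and was at least 10.1-fold higher (adjusted p = 1.26e-05). GATA factors of the foregut were higher too, with Gata4 at least 4.19-fold (adjusted p = 0.00193) and Gata5 by a log2 difference of 2.44 ± 0.23 (adjusted p = 0.000638). Gata6, which acts along the whole gut, had 931, 1162.8 and 1351.8 against 753.9, 1029.7 and 871.9, with overlap, and did not pass (log2 difference 0.37, adjusted p = 0.265). Sox21, a stomach and oesophagus factor (log2 difference 1.38, adjusted p = 0.0122), and Foxq1, which controls Muc5ac in mouse surface cells (1.65, adjusted p = 0.0122), were also higher.

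The caudal factors that specify intestine moved the other way. Cdx2 had 286.1, 253.5 and 218.7 in the duodenal group and 925.7, 695 and 836.8 in the cecal group, with no overlap, and fell by 1.63 ± 0.16 on the log2 scale (adjusted p = 0.000783). Cdx1 had 503.5, 671.2 and 397.6 against 1195.5, 1653 and 1895 and fell by 1.57 ± 0.23 (adjusted p = 0.00496). At these probe sets both were still above the dim level in all duodenal tumors. A second Cdx2 probe set had 74.4, 95 and 50.7 against 433.2, 330.1 and 414.2. It was dim in all duodenal tumors (log2 difference -2.21, adjusted p = 0.000832). Foxa1 (log2 difference 0.65, adjusted p = 0.0275) and Hnf4a (-0.50, adjusted p = 0.0266) complete the called factors. Foxa3 and Spdef passed as well without duodenal tumor 2 (adjusted p = 0.0494 and 0.00606). Foxa1 lost its call in 4 of 6 fits with 1 tumor left out and Hnf4a at its brightest probe set in all 6, with adjusted p up to 0.106 and 0.0974. The other Hnf4a probe sets were also lower with no overlap (log2 difference -0.85, -0.71 and -0.73, adjusted p = 0.00741, 0.0109 and 0.038). With 1 tumor left out their adjusted p was at most 0.0388, 0.0529 and 0.128, so the first of them kept its call.

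Markers of other cells that a pyloric sample could hold were read beside the members. The proton pump of acid-secreting parietal cells was low in the duodenal tumors, with its subunit Atp4b at 26.4, 14.6 and 42.6 and Atp4a at 87.8, 135.7 and 59.2, above the dim level only in tumor 2. Intrinsic factor, Cblif, a parietal or chief cell product, had 256.1, 72.2 and 364.5 against 4.9, 2.7 and 8.3 and was not tested. Of 10 parietal genes on the array 4 were tested, with the potassium channel Kcnq1 higher (log2 difference 1.09, adjusted p = 0.0114, but 0.0581 in males alone) and the water channel Aqp4 lower (fell by 3.90, adjusted p = 0.00655, with a log2 difference of -3.28 without cecal tumor 1). Both channels and the bright carbonic anhydrase Car2 also serve other epithelia. Sums of the 10 parietal genes were 10161.4 to 16329.6 in duodenal and 8092.4 to 11106.1 in cecal tumors. Most of each sum was Car2, at 7706.7 to 13088 in duodenal and 5851.3 to 8403.3 in cecal tumors, so the sums do not measure parietal cells.

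Of 6 genes of the chief cell list on the array 2 were tested and 0 passed. These were the mast cell gene Mcpt1 (log2 difference -1.66, adjusted p = 0.337) and the secretory cell factor Bhlha15 (0.15, adjusted p = 0.821). Pga5, a pepsinogen, had 107.4, 55.6 and 83.6 against 53.4, 79.9 and 33.9, above the dim level only in duodenal tumor 1. The gastric lipase Lipf was at most 26.9 and the chitinase Chia1 at most 15.9 anywhere, and Cblif, given above, is also on this list. Sums of the chief cell list were 895 to 4257.8 in duodenal and 1362.8 to 3936.7 in cecal tumors. Mcpt1, a mast cell protease on that list, made up most of the sum in duodenal tumor 2 (3924.5 of 4257.8) and in every cecal tumor. The sums therefore do not measure chief cells. Mcpt1 ranged from 275.8 to 3924.5 over the 6 tumors and passed without duodenal tumor 2 (adjusted p = 0.0153, lower in duodenal tumors). Of 14 squamous forestomach genes 5 were tested and 0 passed, with sums of 4321.9 to 5590.2 against 1804.9 to 3681.2. Sprr1a, a stress-induced keratinocyte gene, made up most of these sums, the keratin Krt10 passed without duodenal tumor 2 (adjusted p = 0.00955 against 0.161), and the basal keratin Krt5 was at 260.3, 60.7 and 257.8 against 41.4, 61.3 and 66.3. The keratins Krt14 and Krt6a did not pass (log2 difference -0.16 and 0.69). Of 12 acinar pancreas genes 2 were tested and Cela1 was higher (log2 difference 1.56, adjusted p = 0.0102). Of the 10 not tested, the trypsinogen Prss2 had 65.2, 98 and 74.4 against 130.9, 195.8 and 79.8. The ribonuclease Rnase1 was at 541.1 in cecal tumor 3 and 117.6 in duodenal tumor 3 and dim in the others. Cela3b was at most 83.8, and the other 7, among them the pancreatic enzymes Cpa1, Cpb1, Ctrb1 and Cela2a, at most 53.8. Sums of the 12 were 3575.5 to 6746 in duodenal and 1591.8 to 3013.1 in cecal tumors. Colipase, Clps, passed without cecal tumor 3 (adjusted p = 0.0173 against 0.124). No marker named in these lists was at exactly 0 on any array.

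Endocrine genes of the stomach were higher in 2 of 5 tested cases out of 8 on the array, against 4.73% of all 8125 tested genes. Both, Gast and Neurog3, were dim in all cecal tumors and were tested only through their duodenal values, so this count by itself carries no weight. Gast had 15.2, 8.1 and 3.9 in cecal tumors and stood at least 8.25-fold higher in the duodenal group (log2 difference 5.07 ± 0.91, adjusted p = 0.0118). The log2 difference was 6.30 without duodenal tumor 2, 4.19 without duodenal tumor 1 and 6.28 in males alone, and Gast passed with any 1 tumor left out (adjusted p = 0.0001 to 0.0483). Neurog3, a factor of endocrine progenitors, was at least 2.58-fold higher (adjusted p = 0.00329). Chga, Chgb and Tph1, other endocrine genes, passed when duodenal tumor 2 was left out (adjusted p = 0.00362, 0.00474 and 0.00799) but not in the fit of all 6 tumors (0.281, 0.302 and 0.13). Tph1 also passed with all 6 under array weights (0.0386). Ghrl, the hormone ghrelin, had 407.7, 51.8 and 2307.7 in the duodenal group and 6.9, 13.6 and 14.5 in the cecal group and was not tested. Summed endocrine levels were 8056.8, 1218 and 13248.5 against 1328.5, 999.7 and 1493.4, so that duodenal tumor 2 lay within the cecal range. Its gastrokine and trefoil levels did not (Gkn1 12496, Tff2 10509). Within that sum its Gast level of 134.6 lay above every cecal value and its Chgb level of 519.2 below every cecal value. Of 4 Brunner gland genes on the array, the growth factor Egf was at most 36.1 everywhere. The other 3, Tff2, Pgc and Aqp5, were higher but are themselves gastric genes and were dim in all cecal tumors.

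Intestinal epithelial genes were bright at both sites. Of 11 tested genes 0 were higher and 5 were lower in duodenal tumors, with sums of 55812.2 to 65924.1 against 76747.8 to 85507.6. The adhesion protein Cdh17 fell by 1.25 ± 0.14 on the log2 scale (adjusted p = 0.00141), and the keratins Krt8 and Krt18 did not pass (log2 difference -0.21 and 0.14). The villus protein Vil1 and the mucin Muc13 lost their calls under several alternatives, with adjusted p up to 0.177 and 0.167. Krt20, a keratin of mature intestinal cells, passed only with the replicate block, array weights or cecal tumor 3 left out (adjusted p = 0.0767, and 0.0067 with the block). Leaving out 1 tumor also made calls of Fabp2 (0.0131), Epcam (0.0435), Krt8 (0.0336) and Lgals4 (0.039), all lower in duodenal tumors. Of 8 smooth muscle genes all were tested and 0 passed, Myh11 being called without duodenal tumor 2 (adjusted p = 0.0148 against 0.652), with sums of 5701.3 to 9825.7 against 6554.4 to 8050.3. The actin Acta2, the desmin gene Des, Tagln and Smtn had log2 differences of 0.06, 0.26, 0.06 and 0.37. Of 7 leukocyte genes 4 were tested and 0 passed, with sums of 5785.4 to 6096.5 against 6831.7 to 8902.3. The leukocyte surface protein Ptprc, the monocyte receptor Cd14 and the lysozyme Lyz2 had log2 differences of -0.43, -0.40 and -0.33 (adjusted p = 0.134, 0.145 and 0.213). The part of any of these cells in the members' levels was not tested.

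**Figure D4:**
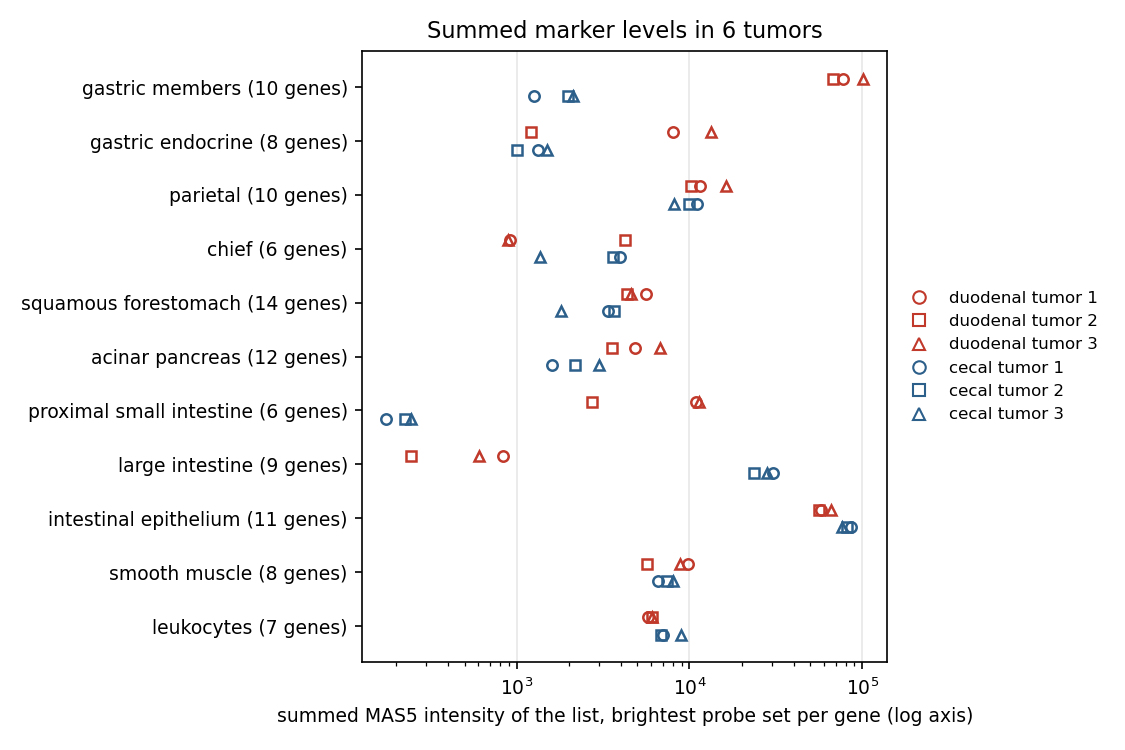
Summed intensity of each marker list (rows; brightest probe set per gene) in each tumor on a log axis, duodenal tumors in red and cecal tumors in blue. Member sums are 67500.9 to 101298.6 in duodenal and 1267.5 to 2110.4 in cecal tumors, whereas endocrine sums of duodenal tumor 2 (1218) lie among the cecal tumors. The chief row is mostly the mast cell gene Mcpt1 in duodenal tumor 2 and the cecal tumors, and the parietal row is mostly Car2 in every tumor.

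Genes outside the member list were ranked by how closely their array profile followed the members' mean profile, as the root mean square distance of centred log2(intensity + 16) over the 6 arrays. Muc1 came first at 0.306. Fabp1, a fatty acid binding protein of enterocytes, followed at 0.633, then Reg1, a secreted lectin, at 0.712 and the protease inhibitor A2m at 0.771. The remaining 6 were 2310057J18Rik (0.791), Chad (0.901), the calcium binding protein S100g (0.945), Teddm3 (1.07), the coagulation factor F5 (1.08) and Psapl1 (1.12). Measured in the same way, and although they contribute to the mean, the members themselves lay between 0.494 for Cldn18 and 1.61 for Pgc. Except for Teddm3, all of these 10 genes stood below the 5th percentile of -0.61 in duodenal tumor 2 against the mean of tumors 1 and 3. The difference was -0.80 for Muc1, -2.67 for Fabp1 and -3.06 for S100g, the last 2 about as low as Muc5ac. Fabp1 was at 4236.3, 683.8 and 4630.3 and S100g at 3659.7, 399.2 and 3264.7 in the duodenal tumors. Teddm3 was not low in tumor 2, at 888.7, 798.4 and 1218.4, and in this it resembled Gkn1 and Anxa10.

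Genes beside the members mostly did not share their difference. Jrk beside Psca, Rab7b beside Ctse and Ddx60 beside Anxa10 had overlapping values at the 2 sites and were too dim to be tested. Tollip, beyond Muc5b from Muc5ac (log2 difference -0.18, adjusted p = 0.412), and Tfeb beside Pgc (-0.25, adjusted p = 0.352) did not pass. Abcg1, beyond Tff3 from Tff2 (0.29, adjusted p = 0.556), and Palld, beyond Ddx60 from Anxa10 (0.27, adjusted p = 0.448), did not pass either. Bmp10, Spock3, Sox14, Arc, Avpr1b, Frs3 and Mdfi were dim in all 6 tumors. Of the neighbours within 2 genes that were no members, Slurp1 and Tff3 passed, in opposite directions.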

How the data were processed

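Each of 3 duodenal and 3 cecal tumors, grouped by title, was read on 1 Affymetrix array. What the authors deposited is a linear intensity per probe set. The submitters' processing notes name MAS5 for it, with no version, scaling target or detection call. No further scaling was applied. Of 22690 probe sets, 20380 named 1 gene in the platform annotation, 691 named several and 1555 none, and 64 were controls. Tested were those above the array's 40th percentile on 3 or more of 6 arrays. Log2 of intensity plus 16, an offset that shrinks differences of dim probe sets, went into limma 3.58.1 under R 4.3.3 with a trended eBayes step, and two-sided p-values were adjusted by Benjamini-Hochberg over 13866 probe sets at a threshold of 0.05. With 3 arrays a group, an exact permutation test over samples cannot go below a two-sided p of 0.1, so none was run. For each gene the probe set with the highest mean stood for it. The fit was tested on simulated data. How precise any value can be is limited by the 6 arrays.

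Replicate numbers 1 to 3 recur at both sites. Same-numbered tumors deviated together from their group means, with correlations of 0.274, 0.299 and 0.203, and a fit that blocked on the number is given as an alternative. Nothing in the labels ties same-numbered tumors together, so no pairing was assumed. Both tumors numbered 2 came from females by Xist. The main fit has no block.

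The members, gene lists and tests were chosen with earlier results of these data known. Named were all members, those protein-coding genes within 2 places of them in the RefSeq table of GRCm38.p6 that were on the array, the 10 genes most like them, up to 8 genes of the other mucous list and of the factor list with the smallest p, and of each marker list up to 3 with the smallest p and the 2 brightest. Capn9, Agr2, Pigr, Kcnk1, Gata6, Foxa1, Hnf4a, Atp4a, Atp4b, Cblif, Lipf, Chia1, Krt5, Ghrl, Xbp1, Foxa3, Spdef, Vil1, Muc13, Krt18, Krt20, Epcam and Fabp2, Pga5, the untested acinar genes and the sex-linked genes were picked after their values were seen. Alternatives changed the offset, filter, normalization, variance model, weights, block, probe set choice and threshold, or left out an array. Fitting males alone and the other probe sets of Cdx2 and Hnf4a were added after the data were seen. Coordinates and sequences come from the RefSeq promoter table. Figures were drawn with Python 3.11.15 and matplotlib 3.10.9.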

Additional observations from a re-analysis of the deposited data

How the results depend on the processing

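The 13 calls among the 14 member probe sets were the same in every alternative that tested them, and a filter at the 60th percentile tested 13 and called 12. With the replicate block the second Ctse probe set also passed (log2 difference 0.7277, adjusted p = 0.0289), and of the listed genes Capn9, Xbp1 and Krt20 did (adjusted p = 0.0458, 0.0474 and 0.0067). It changed no other call named in the text. Calls over all probe sets numbered 1290, and 1939 with array weights, 506 at a threshold of 0.01, 695 from tumors of male mice alone (362 higher and 333 lower in duodenal tumors) and 658 to 1194 with 1 tumor left out. Of the stomach and duodenum factors 6 passed at a threshold of 0.01 in place of 10. Fitted log2 differences of dim members moved with the offset, for Psca to 8.88 with an offset of 1 and to 6.06 with 64, and for Muc5ac to 7.38 and 4.6, which is why their folds are given as bounds. Differences below the dim level of the cecal arrays could not be measured. The cause of the other shifts was not tested.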
